A study of Mus musculus with 10 samples.

Results

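Visceral white adipose tissue (WAT) of *Mof* heterozygous (*Mof*+/-) mice on high-fat diet (HFD) was compared with that of wild-type (*Mof*+/+) mice on the same diet, using the 4 HFD libraries of the 10 mRNA-seq libraries in the series, 2 per genotype. By the labels all animals were C57BL/6, and by the methods the lines were backcrossed to C57BL/6J. Those on HFD were, by the sample descriptions, 27 weeks old after 20 weeks of HFD. The article and its methods give other ages and another length of the diet. The *Mof*+/- mice lack 1 *Mof* allele in every cell of the body, so the adipose tissue cannot be told apart from the rest of the animal as the origin of a difference. The other 6 libraries came from mice of 8 weeks on standard diet (SD), 3 per genotype, and are used only where the genotype differences on both diets were set against each other.

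Genes were kept when they had at least 10 counts in at least 2 of the 4 libraries, which held for 14552 of the 47937 genes listed. A gene is called higher, or lower, in *Mof*+/- when both *Mof*+/- libraries lay on the same side of both *Mof*+/+ libraries. Skeletal muscle genes were set apart, because the library labelled HFD *Mof*+/- replicate 1 held few counts and much muscle and mitochondrial RNA.

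MOF (KAT8) is the acetyltransferase that places the acetyl group on lysine 16 of histone H4, a mark linked to open chromatin and active genes. It works in the MSL complex and in the NSL complex. Visceral fat stores triglyceride in adipocytes, releases fatty acids by lipolysis and secretes hormones such as leptin and adiponectin. During prolonged fat feeding it takes in macrophages, which surround dying adipocytes and digest their lipid in lysosomes, and its extracellular matrix expands. In bulk tissue, fewer cells of a type and less RNA per cell cannot be told apart.

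The libraries differed in depth. The *Mof*+/+ libraries held 15483115 and 16014992 counts on genes, whereas the *Mof*+/- libraries held 1044355 and 5531786. A single count was therefore worth 0.958 CPM (counts of a gene scaled to the library total) in *Mof*+/- replicate 1 and 0.181 CPM in replicate 2. All 4 HFD libraries held counts of Y-linked genes and none of *Xist*. *Kat8*, the gene that encodes MOF (ENSMUSG00000030801.10, GRCm38 chromosome 7 from 127912516 to 127925837), was at 18.1 and 19.2 CPM in the *Mof*+/+ libraries and at 20.1 and 10.5 CPM in the libraries labelled *Mof*+/- replicates 1 and 2. The genotypes overlapped, since the library labelled replicate 1 was the highest of the 4. Its value rested on 21 counts, with a 95% confidence interval (exact Clopper-Pearson, counting error only) of 12.4 to 30.7 CPM. That of replicate 2, 7.96 to 13.6 CPM, lay below the intervals of both *Mof*+/+ libraries, which began at 16.1 and 17.1 CPM. *Kat8* thus lay below both *Mof*+/+ libraries in the library labelled replicate 2 by more than counting error, which leaves out variation between animals. Its level leaves the label of replicate 1 unchecked at this depth. Of the 12 listed subunits of the MOF complexes, 7 were lower and 0 were higher in both *Mof*+/- libraries on CPM, but 3 lower and 1 higher after TMM normalization, which sets the libraries by the bulk of their genes. Of all genes 46.9% and 36.8% were lower on these scales. *Msl1*, the scaffold of the MSL complex, was at 101 and 103 CPM in *Mof*+/+ and 15.3 and 56.2 CPM in *Mof*+/- libraries.

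Tested over all 14552 genes with edgeR's quasi-likelihood test, 0 genes passed an adjusted p-value of 0.05 for genotype (smallest adjusted p = 0.239). At an unadjusted p-value under 0.05, 460 genes were higher (3.16%) and 1590 were lower (10.9%) in *Mof*+/-. DESeq2 called 119 higher and 93 lower at an adjusted p-value under 0.05. The biological coefficient of variation was 0.641. For a single gene, the exact permutation test of 2 libraries against 2 cannot go below 0.333. The counts below are therefore a description of these 4 libraries, and no gene or list is said to have changed.

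The genotypes did not overlap in 8048 genes (55.3%). Of all genes, 1228 were higher in both *Mof*+/- libraries (8.44%) and 6820 were lower (46.9%). The split depended on the scale. After TMM normalization 2085 genes were higher (14.3%) and 5349 lower (36.8%). All 1228 genes that were higher on CPM were also higher after TMM normalization, and 5349 of the 6820 lower genes were also lower. Of the lower genes 54.7% had fewer than 3 counts in *Mof*+/- replicate 1, beside 40.7% of all genes tested. At a mean of at least 10 CPM, 42.8% of the genes were lower. The part of depth in the lower calls was not tested. The median log2 fold change over all genes tested was −0.27.

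Skeletal muscle genes, which adipocytes do not express at such levels, differed widely between the libraries. The 118 listed muscle genes summed to 1509 and 1475 CPM in the *Mof*+/+ libraries, 116554 CPM in *Mof*+/- replicate 1 and 3901 CPM in replicate 2. Of the 86 that were tested, 71 were higher and 2 lower. *Myh4*, the myosin heavy chain of the fastest muscle fibres, was at 0 and 0 CPM in *Mof*+/+ and at 14505 and 176 CPM in *Mof*+/- libraries. *Ckm*, muscle creatine kinase, was at 0 and 0 CPM in *Mof*+/+ and 7712 and 298 CPM in *Mof*+/-. *Acta1*, skeletal actin, was at 13.8 and 9.87 CPM in *Mof*+/+ and 5418 and 352 CPM in *Mof*+/-. Both *Mof*+/- libraries thus held muscle RNA, and replicate 1 held 29.9 times as much as replicate 2. The 71 higher muscle genes were all higher in replicate 1 than in replicate 2, with a median ratio of 26.7. The genes *Tnni2*, *Tnnt3*, *Pvalb*, *Tnnc2*, *Myl1*, *Mylpf*, *Tpm1*, *Atp2a1* and *Eno3*, which code for proteins of contraction, calcium handling and glycolysis in fibres, completed the 12 of highest level in replicate 1.

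The mitochondrial genome followed replicate 1 alone. Its 15 genes summed to 42277 and 31325 CPM in *Mof*+/+, 268365 CPM in *Mof*+/- replicate 1 and 17863 CPM in replicate 2. Of the 15, 2 were higher in both *Mof*+/- libraries. In the others replicate 1 lay above both *Mof*+/+ libraries and replicate 2 did not. The part of the muscle RNA and of the mitochondrial transcripts in the results below was not tested. The level of each gene is given in both *Mof*+/- libraries. A gene that fat and muscle both express need not show the muscle ratio of 29.9.

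**Figure D1:**
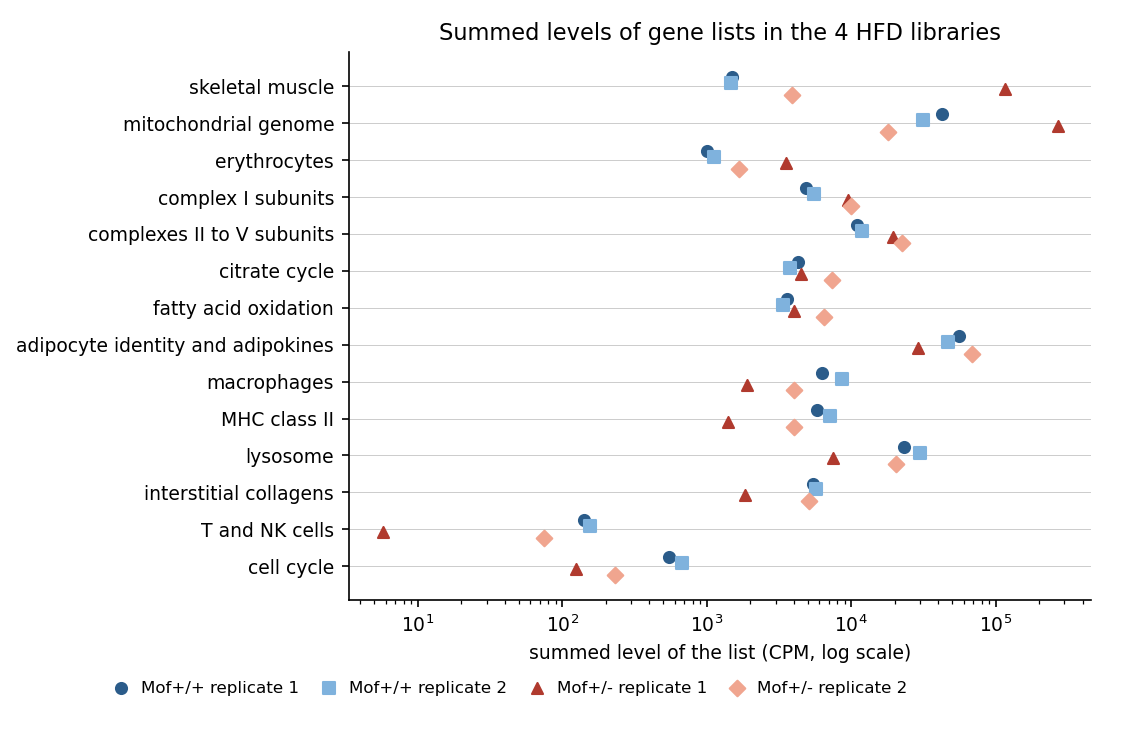
Summed CPM (log scale) of the genes of 14 lists in the 4 HFD libraries, 1 point per library. The muscle list reaches 116554 CPM in *Mof*+/- replicate 1 and 3901 CPM in replicate 2, whereas the complex I sums of these libraries, 9580 and 10029 CPM, lie beside each other and above both *Mof*+/+ libraries.

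Nuclear genes of the respiratory chain were higher in *Mof*+/-. The chain passes electrons from NADH and succinate to oxygen through complexes I to IV and uses the resulting proton gradient to make ATP in complex V. Of 76 nuclear-coded genes tested, 62 were higher in both *Mof*+/- libraries and 0 were lower, beside 8.44% and 46.9% of all genes. After TMM normalization 74 were higher. Their median log2 fold change was 1.21, against −0.27 over all genes, and 55 of them had an unadjusted p-value under 0.05. Without the library labelled replicate 1, 74 were higher and 1 was lower, where 30.0% and 57.6% of all genes were. Their sums were 15897 and 17437 CPM in *Mof*+/+ and 29064 and 32533 CPM in *Mof*+/- libraries. On CPM these sums had a ratio of 0.893 between replicates 1 and 2 of *Mof*+/-. That of the muscle sums was 29.9, and that of the adipocyte identity list 0.418. The ratio depended on the scale. With muscle and mitochondrial genes left out of the totals, the complex I sums were 5092 and 5695 CPM in *Mof*+/+ and 15575 and 10252 CPM in *Mof*+/-. Those of complexes II to V were 11533 and 12333 CPM in *Mof*+/+ and 31677 and 23004 CPM in *Mof*+/-. The part of muscle RNA in these sums was not tested.

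In complex I, the NADH dehydrogenase, 30 of 37 genes were higher and 0 lower. *Ndufa2*, an accessory subunit, was at 181 and 248 CPM in *Mof*+/+ and 554 and 535 CPM in *Mof*+/-. *Ndufb8* was at 140 and 153 CPM in *Mof*+/+ and 286 and 296 CPM in *Mof*+/- (log2 fold change 1.33 with a standard error of 0.30, adjusted p = 0.239). For both genes, the lowest *Mof*+/- library lay above the highest *Mof*+/+ library. The 30 higher genes had log2 fold changes from 0.70 to 1.99, and 15 of them were higher in replicate 1 than in replicate 2 of *Mof*+/-.

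Of the 39 genes of complexes II to V and cytochrome c, 32 were higher and 0 lower. *Uqcrq*, a small subunit of complex III, was at 247 and 276 CPM in *Mof*+/+ and 962 and 788 CPM in *Mof*+/-, the widest separation among the 76 genes, which leave out the subunits *Cox7a1* and *Cox8b* of the muscle list. *Cox4i1* of complex IV was at 617 and 709 CPM in *Mof*+/+ and 1030 and 1745 CPM in *Mof*+/-. *Atp5a1*, the alpha subunit of ATP synthase, was at 733 and 728 CPM in *Mof*+/+ and 1132 and 1364 CPM in *Mof*+/-.

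NRF1, a transcription factor known for nuclear genes of mitochondrial proteins, binds a palindromic core. In the 250 bases before the start of the gene (RefSeq, GRCm38.p6), the letters CGCATGCG were found in 7 of the 63 matched chain promoters (11.1%), 1.58% of all 27025 promoters of the same length and 3.12% of the promoters of genes tested. The E-box letters CACGTG were found in 7.94% of the chain promoters, 6.05% of all and 8.38% of those of genes tested, and the letters GACGTCA of the cAMP response element, read on both strands, in 11.1%, 2.88% and 4.61%. The E-box share of the chain thus lay between those of all promoters and of genes tested. These motifs were chosen after other letters had been counted, and CACGTG and GACGTCA share the letters ACGT. A match of letters is a description and not a binding site. The stretches below, shown because their genes were higher in both *Mof*+/- libraries, hold the NRF1 core in capitals with 36 bases on either side. *Atp5l* and *Ndufa8* were also higher and hold it nearer to the edge of the window. The other 2 of the 7, *Atp5g2* and *Cox6a1*, overlapped on both scales, with *Mof*+/- replicate 1 below and replicate 2 above both *Mof*+/+ libraries. The stretches of *Atp5k*, *Cycs* and *Ndufa11* lie on GRCm38.p6 at chr5:108434405-108434484 on the minus strand, chr6:50566587-50566666 on the minus strand and chr17:56717667-56717746 on the plus strand.
Atp5k: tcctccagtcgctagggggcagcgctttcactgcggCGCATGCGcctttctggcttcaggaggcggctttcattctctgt
Cycs: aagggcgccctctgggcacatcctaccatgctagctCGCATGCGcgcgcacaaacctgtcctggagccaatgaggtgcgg
Ndufa11: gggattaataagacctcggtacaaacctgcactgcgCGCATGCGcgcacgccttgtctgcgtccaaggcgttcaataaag

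Of the enzymes that feed the chain, those of the citrate cycle and of fatty acid oxidation were more often higher than lower. In the citrate cycle and pyruvate dehydrogenase, 15 of 23 genes were higher and 0 lower, beside 8.44% and 46.9% of all genes. After TMM normalization 18 were higher, beside 14.3% of all genes. Their median log2 fold change was 0.88. *Ogdh*, the 2-oxoglutarate dehydrogenase, was at 245 and 212 CPM in *Mof*+/+ and 299 and 305 CPM in *Mof*+/-. Citrate synthase (*Cs*) was at 311 and 274 CPM in *Mof*+/+ and 314 and 532 CPM in *Mof*+/-, so that its separation in replicate 1 was narrow. In fatty acid oxidation, 12 of 25 genes were higher and 2 lower on CPM, and 16 and 2 after TMM normalization. Without replicate 1, 22 of the 25 were higher, beside 30.0% of all genes. The median log2 fold change of this list was 0.92. *Acadvl*, which starts the oxidation of very long-chain fatty acids, was at 149 and 148 CPM in *Mof*+/+ and 318 and 469 CPM in *Mof*+/- (log2 fold change 1.72 with a standard error of 0.31, adjusted p = 0.239). *Acadl* was at 248 and 236 CPM in *Mof*+/+ and 391 and 412 CPM in *Mof*+/-. *Cpt1a*, the entry step in most tissues, was lower, with 122 and 147 CPM in *Mof*+/+ and 48.8 and 105 CPM in *Mof*+/-. In branched-chain amino acid catabolism 5 of 21 genes were higher, 0 were lower and 16 overlapped. The sums of this list were 1790 and 1468 CPM in *Mof*+/+ and 1224 and 3099 CPM in *Mof*+/-, with replicate 1 below and replicate 2 above the wild type. Without replicate 1 all 21 were higher, where 30.0% of all genes were. *Bcat2*, the first enzyme of that pathway, was at 43.9 and 47.4 CPM in *Mof*+/+ and 60.3 and 127 CPM in *Mof*+/-.

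**Figure D2:**
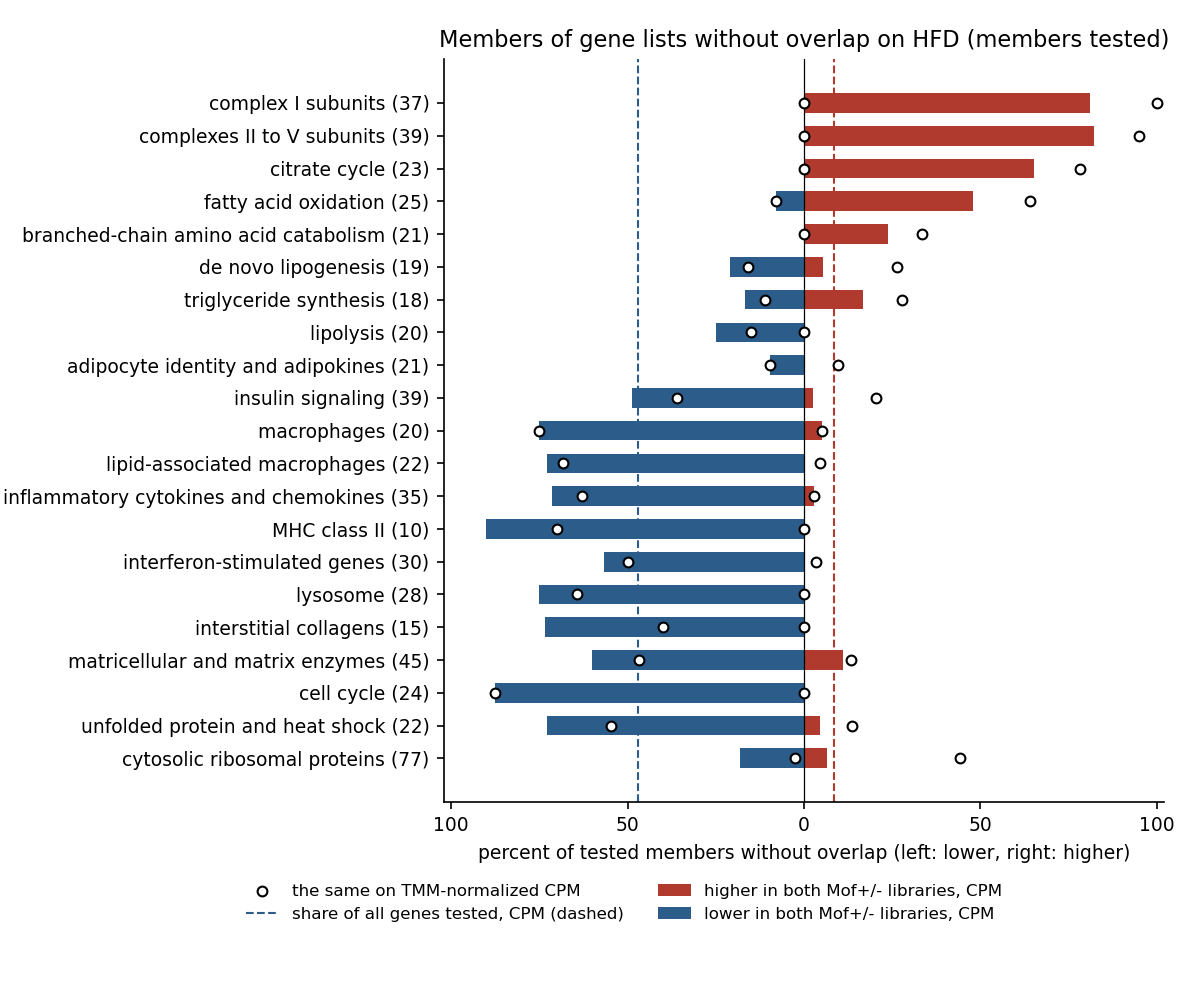
Percentage of the tested members of 21 gene lists that were higher (red, right) or lower (blue, left) in both *Mof*+/- libraries, on CPM (bars) and TMM-normalized CPM (white points), with the shares of all genes on CPM as dashed lines (8.44% higher, 46.9% lower). The lists of the respiratory chain stand to the right of the red line, and those of macrophages, MHC class II, lysosome and cell cycle to the left of the blue line.

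Of 15 genes of lipid droplet coats, 2 were higher and 0 lower in both *Mof*+/- libraries, and the other 13 overlapped, a higher share near the 8.44% of all genes. Without replicate 1, 11 of the 15 were higher, beside 30.0% of all genes. *Plin5*, 1 of the 2, which coats droplets and anchors them to mitochondria, was at 7.10 and 8.93 CPM in *Mof*+/+ and 99.6 and 46.6 CPM in *Mof*+/-. *Cidea*, the other, a droplet protein of brown and beige adipocytes, was at 7.43 and 4.75 CPM in *Mof*+/+ and 35.4 and 60.4 CPM in *Mof*+/-. *Ucp3*, a mitochondrial carrier found in muscle and brown fat, was at 11.0 and 14.2 CPM in *Mof*+/+ and 85.2 and 55.3 CPM in *Mof*+/-. In *Plin5*, *Cidea* and *Ucp3* replicate 1 was between 0.587 and 2.14 times replicate 2. Among 13 thermogenic genes tested, 5 were higher and 2 lower, beside 8.44% and 46.9% of all genes. Of the higher genes, *Cox7a1* and *Cox8b* are also on the muscle list. *Ucp1*, the uncoupling protein of brown fat, was at 0.904 and 0 CPM in *Mof*+/+ and 81.4 and 3.62 CPM in *Mof*+/-. These values rested on 14 and 0 counts in *Mof*+/+ and 85 and 20 counts in *Mof*+/-. The ratio between the *Mof*+/- libraries was 22.5, beside 29.9 for the muscle sums. *Fabp3* and *Pfkm*, which muscle expresses, had ratios of 22.3 and 12.5. The source of these transcripts was not tested.

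*Slc2a4* (ENSMUSG00000018566.14, GRCm38 chromosome 11 from 69942539 to 69948188), which codes for the insulin-responsive glucose transporter GLUT4, was at 93.4 and 65.3 CPM in *Mof*+/+ and 204.9 and 202.5 CPM in *Mof*+/-. The study reports the opposite direction in WAT of *Mof*+/- mice on HFD, from RT-qPCR and from staining of the protein. Skeletal muscle also expresses *Slc2a4*, and the part of muscle RNA in its level was not tested. Its ratio between replicates 1 and 2 of *Mof*+/- was 1.01, where that of the muscle sums was 29.9 and that of the adipocyte identity list 0.418. Both *Mof*+/- libraries lay at least 2.17-fold above both *Mof*+/+ libraries, and the log2 fold change was 1.70, with a standard error of 0.34 (adjusted p = 0.239). It was the 1 higher gene among the 39 of insulin signaling on CPM, where 19 were lower. After TMM normalization 8 were higher and 14 lower. The lower counts are near the 46.9% and 36.8% of all genes. *Akt1*, a kinase downstream of the insulin receptor, was at 153 and 163 CPM in *Mof*+/+ and 72.8 and 62.2 CPM in *Mof*+/-. Among the genes that the study followed, *Pparg*, the nuclear receptor that drives adipocyte differentiation, was at 142 and 106 CPM in *Mof*+/+ and 46.9 and 121 CPM in *Mof*+/-, and overlapped. *Adipoq*, which codes for adiponectin, was at 2513 and 1991 CPM in *Mof*+/+ and 879 and 3738 CPM in *Mof*+/-. It overlapped, with both *Mof*+/- libraries outside the wild-type range on opposite sides. *Irs1*, *Fabp4*, *Cd36*, *Dgat2*, *Rbp4*, *Mef2c*, *Pdk1* and *Ppargc1a* overlapped as well on CPM, with log2 fold changes from −0.53 to 1.27. After TMM normalization *Irs1* and *Fabp4* were higher in both *Mof*+/- libraries.

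Adipocyte genes taken as a list did not separate when both *Mof*+/- libraries were used. Of 21 genes of adipocyte identity and adipokines, 2 were lower and 0 higher on CPM, 2 were lower and 2 higher after TMM normalization, and the sums were 56055 and 47138 CPM in *Mof*+/+ and 28849 and 69035 CPM in *Mof*+/-. The lower genes were *Lep* and *Lpl*. Leptin (*Lep*), the hormone that reports fat mass, was at 6212 and 4599 CPM in *Mof*+/+ and 938 and 2246 CPM in *Mof*+/-. *Lpl*, the lipase that frees fatty acids from lipoproteins, was at 10602 and 10594 CPM in *Mof*+/+ and 4297 and 7502 CPM in *Mof*+/-. In de novo lipogenesis 1 of 19 genes was higher and 4 were lower on CPM, whereas 5 were higher and 3 lower after TMM normalization. The gene that was higher on CPM was *Acacb*, the acetyl-CoA carboxylase at the mitochondrial surface whose product restrains fatty acid entry, at 18.6 and 21.5 CPM in *Mof*+/+ and 98.6 and 62.9 CPM in *Mof*+/-. In lipolysis 5 of 20 were lower on CPM and 3 after TMM normalization, among them *Lipa*, the lysosomal acid lipase of macrophages and other cells, at 402 and 514 CPM in *Mof*+/+ and 55.5 and 150 CPM in *Mof*+/-. In triglyceride synthesis 3 of 18 genes were higher and 3 lower on CPM, and 5 and 2 after TMM normalization. *Pck1*, which supplies glycerol 3-phosphate in fat, was at 266 and 128 CPM in *Mof*+/+ and 294 and 800.5 CPM in *Mof*+/-. In each of the lists of adipocyte identity, lipogenesis, lipolysis and triglyceride synthesis the lower share was under that of all genes on both scales. The higher counts of these lists depended on the shallow library. Without *Mof*+/- replicate 1 they were, in the same order, 14 of 21, 12 of 19, 14 of 20 and 12 of 18, beside 30.0% of all genes.

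Macrophage genes were lower in *Mof*+/-. Of 20 macrophage markers, 15 were lower in both *Mof*+/- libraries and 1 was higher, on CPM and after TMM normalization, where 46.9% and 36.8% of all genes were lower. Their median log2 fold change was −1.23. *Cd68*, a lysosomal membrane protein of macrophages, was at 469 and 673 CPM in *Mof*+/+ and 78.5 and 139 CPM in *Mof*+/- (log2 fold change −2.09 with a standard error of 0.40, adjusted p = 0.239). *Csf1r*, the receptor for the macrophage growth factor, was at 314 and 450 CPM in *Mof*+/+ and 72.8 and 193 CPM in *Mof*+/-. *Lyz2*, lysozyme, was at 2680 and 3261 CPM in *Mof*+/+ and 915 and 1383 CPM in *Mof*+/-. The exception was *Cd163*, a scavenger receptor of resident macrophages, at 9.82 and 11.2 CPM in *Mof*+/+ and 33.5 and 16.1 CPM in *Mof*+/-. Without replicate 1, 17 of the 20 were lower and 1 was higher, where 57.6% and 30.0% of all genes were, since fewer libraries leave fewer chances to overlap.

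*Itgam* (ENSMUSG00000030786.18, GRCm38 chromosome 7 from 128062640 to 128118491), which codes for the integrin CD11b of macrophages and neutrophils, had the largest gap of the 2680 lower genes that had enough counts, were on none of the muscle, mitochondrial and sex-linked lists and agreed within 4-fold between the *Mof*+/- libraries. *Itgam* was at 88.2 and 136 CPM in *Mof*+/+ and 4.79 and 4.70 CPM in *Mof*+/-. These values rested on 5 counts in *Mof*+/- replicate 1 and on 26 counts in replicate 2. Its neighbour *Itgax*, which codes for CD11c, was at 223 and 279 CPM in *Mof*+/+ and 36.4 and 41.8 CPM in *Mof*+/-. Of 22 genes of lipid-associated macrophages, the cells of the crown-like structures around dying adipocytes, 16 were lower and 0 higher on CPM, and 15 and 1 after TMM normalization, beside 46.9% and 36.8% of all genes lower. The sums of this list overlapped, at 48765 and 56585 CPM in *Mof*+/+ and 23026 and 56519 CPM in *Mof*+/-, and its most abundant genes, *Fabp4* and *Lpl*, are also those of adipocytes. *Gpnmb* was at 1146 and 1849 CPM in *Mof*+/+ and 236 and 306 CPM in *Mof*+/-. *Mmp12*, the macrophage elastase, was at 1060 and 1116 CPM in *Mof*+/+ and 259 and 144 CPM in *Mof*+/-. *Trem2*, the lipid receptor that marks these cells, was at 313 and 588 CPM in *Mof*+/+ and 86.2 and 247 CPM in *Mof*+/-.

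**Figure D3:**
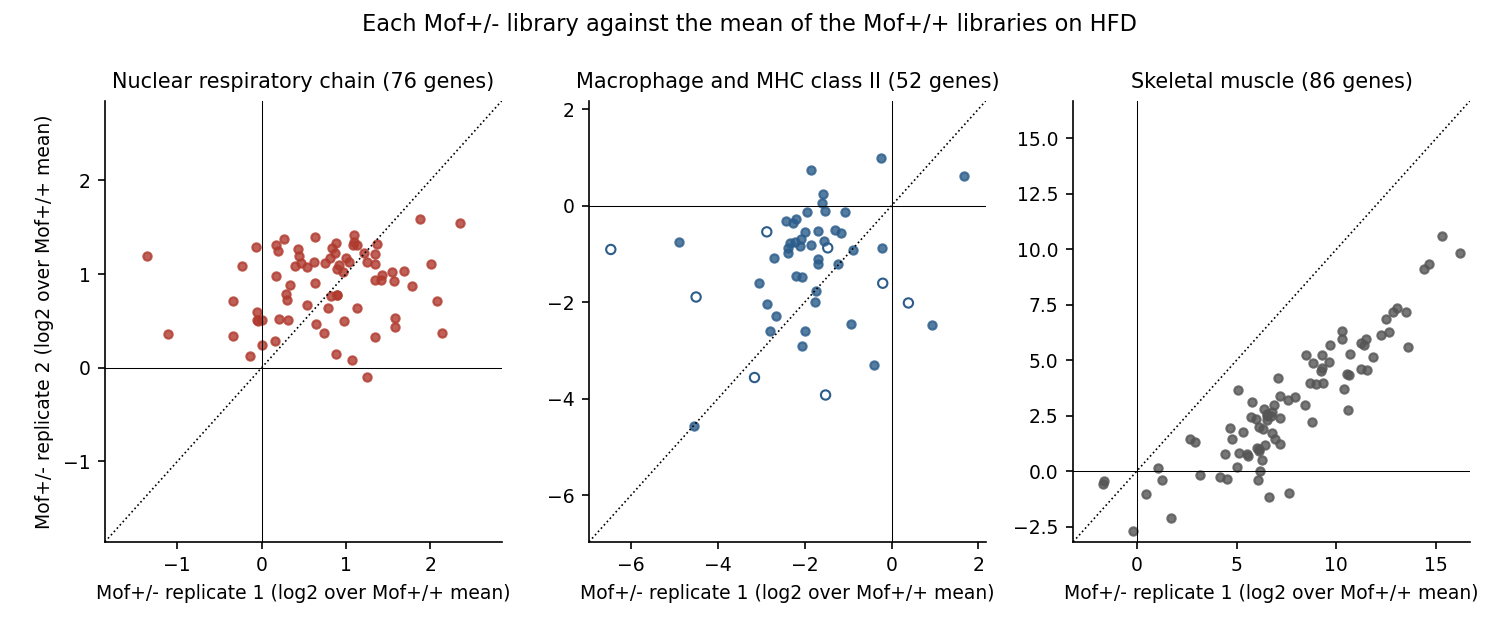
Level of each gene in *Mof*+/- replicate 1 (x axis) and replicate 2 (y axis) over the mean of the *Mof*+/+ libraries (log2 of CPM, values under 3 counts set to 3 counts), for 76 respiratory chain, 52 macrophage and MHC class II and 86 muscle genes. Open points had under 3 counts in replicate 1, and the dotted line marks equal values. The chain genes scatter around the line above 0, whereas most muscle genes lie far to its right.

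Inflammatory, antigen presentation and lysosomal genes showed the same direction. Of 35 inflammatory cytokines, chemokines and receptors, 25 were lower and 1 higher. *Ccl6*, a chemokine of myeloid cells, was at 562 and 808 CPM in *Mof*+/+ and 195 and 265 CPM in *Mof*+/-. *Ccl2*, which draws monocytes into tissue, was at 174 and 141 CPM in *Mof*+/+ and 0 and 14.8 CPM in *Mof*+/-. The higher gene was *Cxcl14*, a chemokine that fat and epithelium secrete, at 20.5 and 26.9 CPM in *Mof*+/+ and 72.8 and 118 CPM in *Mof*+/-. In MHC class II presentation 9 of 10 genes were lower and 0 higher. *Cd74*, the invariant chain, was at 2257 and 2721 CPM in *Mof*+/+ and 495 and 1465 CPM in *Mof*+/-. Of 28 lysosomal genes 21 were lower and 0 higher. *Psap*, which yields the activators of sphingolipid breakdown, was at 4805 and 6153 CPM in *Mof*+/+ and 1420 and 3079 CPM in *Mof*+/-. After TMM normalization the lower counts were 22, 7 and 18 for these lists. Of all genes 46.9% were lower on CPM and 36.8% after TMM normalization. Of the lower genes, 12 inflammatory, 2 MHC class II and 2 lysosomal genes had fewer than 3 counts in *Mof*+/- replicate 1.

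Of 30 interferon-stimulated genes 17 were lower and 0 higher, a share near that of all genes. Their sums ran from 2589 CPM in *Mof*+/- replicate 1 to 12789 CPM in replicate 2, on opposite sides of the 3273 and 3849 CPM of *Mof*+/+. The sum of replicate 2 was carried by *Ifi27l2a*, at 1769 and 2473 CPM in *Mof*+/+ and 1921 and 11470.1 CPM in *Mof*+/-, whereas the median difference of the list between that library and the mean of *Mof*+/+ was −0.49 on the scale of log2(TMM-normalized CPM + 1). *Iigp1*, an interferon-induced GTPase, was at 82.1 and 90.4 CPM in *Mof*+/+ and 23.9 and 25.5 CPM in *Mof*+/-. Lymphocyte markers were few in counts. Of 18 T and NK cell genes 12 were lower, beside 46.9% of all genes, and all 12 had fewer than 3 counts in *Mof*+/- replicate 1. Among all 5919 tested genes with so few counts in that library, 3729 were lower. The part of depth in these 12 calls was not tested. *Igkc*, the kappa light chain of plasma cells, was at 2982 CPM in *Mof*+/+ replicate 1 and 268 CPM in replicate 2, a wide spread within the wild type, and at 173 and 50.8 CPM in *Mof*+/-.

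Proliferation genes were lower as well. Of 24 cell cycle genes 21 were lower and 0 higher, on both scales, beside 46.9% and 36.8% of all genes lower, although 16 of the 21 had fewer than 3 counts in *Mof*+/- replicate 1. *Pcna*, the clamp of DNA replication, was at 112 and 123 CPM in *Mof*+/+ and 39.3 and 37.8 CPM in *Mof*+/-. *Mki67*, a marker of dividing cells, was at 51.3 and 63.6 CPM in *Mof*+/+ and 30.6 and 9.58 CPM in *Mof*+/-. Without replicate 1, 22 of the 24 were lower, beside 57.6% of all genes.

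In the extracellular matrix, 27 of 45 genes of matricellular proteins and matrix enzymes were lower and 5 higher, and 21 and 6 after TMM normalization, where 46.9% and 36.8% of all genes were lower. Of the 27 genes, 9 had fewer than 3 counts in *Mof*+/- replicate 1. *Fn1*, fibronectin, was at 684 and 767 CPM in *Mof*+/+ and 97.7 and 102 CPM in *Mof*+/- (log2 fold change −2.53 with a standard error of 0.34, adjusted p = 0.239). *Dcn*, the proteoglycan decorin, was at 1050 and 946 CPM in *Mof*+/+ and 320 and 448 CPM in *Mof*+/-. *Timp3*, an inhibitor of metalloproteinases, was higher, at 161 and 142 CPM in *Mof*+/+ and 334 and 250.0 CPM in *Mof*+/-. Of 15 interstitial collagens 11 were lower on CPM and 6 after TMM normalization, the latter near the share of all genes. *Col1a1* was at 470 and 536 CPM in *Mof*+/+ and 275 and 436 CPM in *Mof*+/-, and overlapped on the TMM scale. In the endothelium, 3 of 22 genes were higher and 7 lower, and 8 and 3 after TMM normalization, so that the lower share was under that of all genes on both scales. *Gpihbp1*, which holds lipoprotein lipase on capillaries, was higher on both scales, at 109 and 116 CPM in *Mof*+/+ and 200.1 and 229 CPM in *Mof*+/-.

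Of 77 cytosolic ribosomal protein genes, 5 were higher and 14 lower on CPM, whereas 34 were higher and 2 lower after TMM normalization. The balance of higher and lower genes in this list thus turned with the scale, whereas its lower share was under the 46.9% and 36.8% of all genes on both. Of 22 heat shock and unfolded protein genes 16 were lower and 1 higher on CPM, and 12 and 3 after TMM normalization, with lower shares above those of all genes. *Hspa8*, the constitutive HSP70, was at 1558 and 1519 CPM in *Mof*+/+ and 1018 and 1016 CPM in *Mof*+/-.

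Of 20 complement genes 12 were lower and 0 higher on CPM, and 9 and 2 after TMM normalization, beside 46.9% and 36.8% of all genes lower. *C3*, the central component, was at 1787 and 1502 CPM in *Mof*+/+ and 697 and 625 CPM in *Mof*+/-. *C1qc*, a chain of C1q that macrophages make, was at 551 and 934 CPM in *Mof*+/+ and 253 and 447 CPM in *Mof*+/-. Of 20 genes of adipose progenitors and fibroblasts 11 were lower and 0 higher on CPM, and 9 and 2 after TMM normalization, lower shares near those of all genes. *Fbn1*, fibrillin of the microfibrils, was at 234 and 281 CPM in *Mof*+/+ and 134 and 76.6 CPM in *Mof*+/-. In cholesterol synthesis 12 of 23 genes were lower, a share near that of all genes.

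Genes of the glucocorticoid and fasting response were higher in 5 of 14 cases and lower in 2 on CPM, beside 8.44% and 46.9% of all genes. After TMM normalization they were higher in 8 cases and lower in 1, beside 14.3% and 36.8%. *Tsc22d3*, a glucocorticoid target also known as GILZ, was at 161 and 156 CPM in *Mof*+/+ and 279 and 245 CPM in *Mof*+/-. *Pdk4*, the kinase that shuts pyruvate dehydrogenase in fasting, was at 22.4 and 27.1 CPM in *Mof*+/+ and 235 and 66.7 CPM in *Mof*+/-, and is also abundant in muscle. For both genes the *Mof*+/- libraries lay above the *Mof*+/+ libraries by more than 1.5-fold. Of 19 clock genes 3 were higher and 6 lower on CPM, and 4 and 4 after TMM normalization, beside 8.44% and 46.9% of all genes on CPM. *Tef*, a transcription factor of the clock output, was at 57.2 and 57.8 CPM in *Mof*+/+ and 87.1 and 90.6 CPM in *Mof*+/-. *Per3*, a clock repressor, was lower, at 13.9 and 14.0 CPM in *Mof*+/+ and 7.66 and 8.86 CPM in *Mof*+/-. In glycolysis 6 of 19 genes were higher and 5 lower on CPM, and 9 and 4 after TMM normalization, with a lower share under that of all genes on both scales. Of the 6 higher genes, 5 were higher in replicate 1 than in replicate 2 of *Mof*+/-. The sums of this list were 6917 and 7080 CPM in *Mof*+/+ and 17231 and 8359 CPM in *Mof*+/-. The part of muscle RNA was not tested. *Tpi1*, triose phosphate isomerase, was at 889 and 851 CPM in *Mof*+/+ and 1140 and 1216 CPM in *Mof*+/-.

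Outside the muscle, mitochondrial and sex-linked lists, 711 higher and 2680 lower genes had enough counts in the higher genotype and passed a 4-fold limit between the *Mof*+/- libraries. Values under 3 counts were set to 3 counts for that limit. Lower genes needed no counts in *Mof*+/-, so passing it does not show that the *Mof*+/- libraries agreed. Ranked by the gap between the nearest libraries of the genotypes, the first higher gene was *H2-Q10*, a secreted MHC class I molecule, at 4.0 and 6.31 CPM in *Mof*+/+ and 69.9 and 92.9 CPM in *Mof*+/-. The gap was 11.1-fold. *H2-Q10* belongs to a family of similar genes, so that the counting could have shared reads among them. *Chchd10*, a protein of the mitochondrial intermembrane space that muscle also expresses, was at 27.9 and 35.9 CPM in *Mof*+/+ and 423 and 163 CPM in *Mof*+/-. *Nr1d1*, the clock repressor REV-ERB alpha, was at 20.9 and 10.8 CPM in *Mof*+/+ and 59.4 and 85.0 CPM in *Mof*+/-. *Mcrip2*, *Oxld1*, *Parm1*, *Dusp28*, *Rbp7* and *Atp5e* completed the 15, with gaps from 2.53-fold to 3.55-fold.

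Of the 15 lower genes of largest gap, 14 had fewer than 3 counts in *Mof*+/- replicate 1. In 8 of these the gap was taken against 3 counts in replicate 1 and is a lower bound. In the other 6 (*Arhgap30*, *Cd180*, *Slfn5*, *C7*, *Mamdc2* and *Aldh1a3*) replicate 2 lay above that level and set the gap. The exception was *Itgam*, with a gap of 18.4-fold. *Bin2*, an adaptor of blood cells, was at 31.2 and 40.1 CPM in *Mof*+/+ and at 0 and 0.904 CPM in *Mof*+/-. *Cd180*, a receptor of B cells and macrophages, was at 48.3 and 56.9 CPM in *Mof*+/+ and at 0 and 4.16 CPM in *Mof*+/-. *Gbp3*, *Plaur*, *Mertk*, *Ptpn22*, *Gpatch4*, *Lpin2* and *Errfi1* completed the 15.

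**Figure D4:**
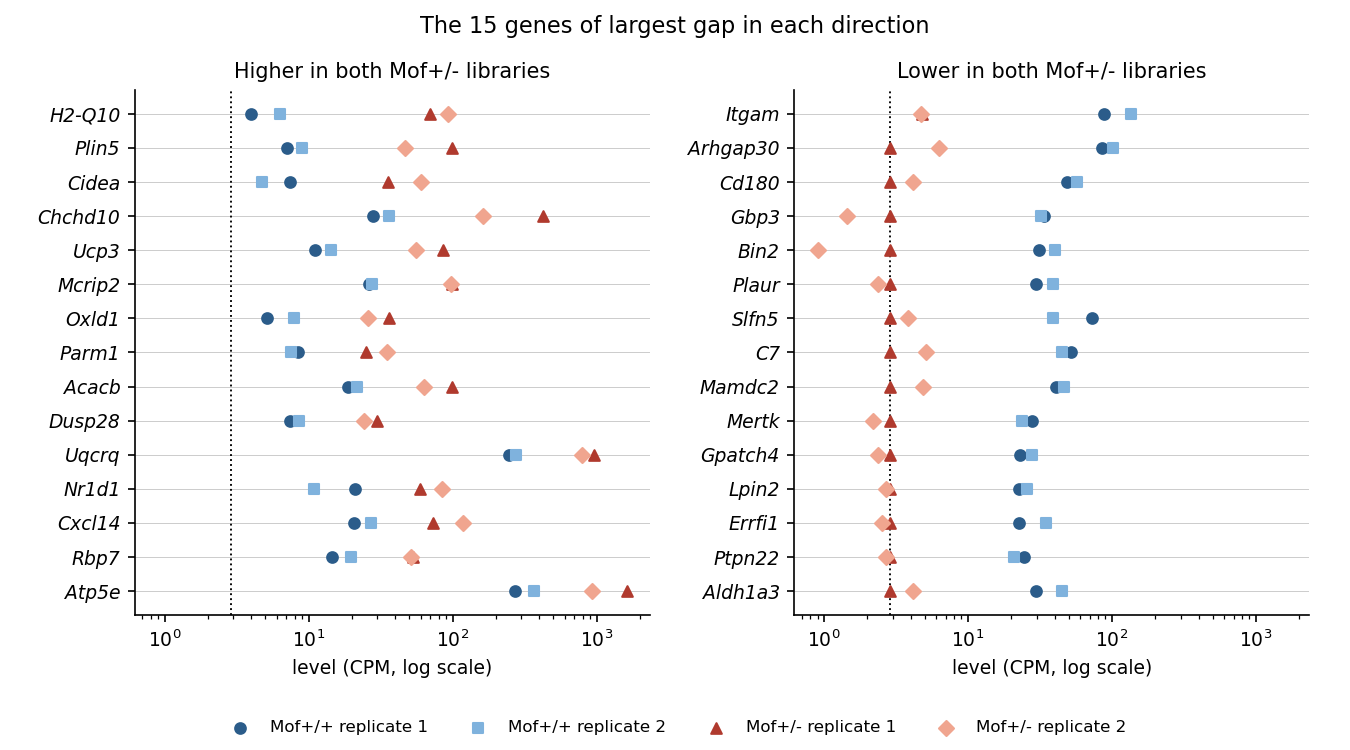
CPM (log scale) in the 4 HFD libraries of the 15 genes of largest gap in each direction, outside the muscle, mitochondrial and sex-linked lists. Values under 3 counts are drawn at 3 counts, and the dotted line marks 3 counts in *Mof*+/- replicate 1 (2.87 CPM). In each row both *Mof*+/- points lie on the same side of both *Mof*+/+ points.

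Whether the genotype difference on HFD was the same as on SD was tested as an interaction over all 10 libraries. Of 16758 genes, 14 passed at an adjusted p-value under 0.05, 4 in the direction of higher in *Mof*+/- on HFD than on SD (0.0239%) and 10 lower (0.0597%). The SD *Mof*+/- libraries held *Xist* and 0 counts of Y-linked genes, whereas all others held Y-linked genes and no *Xist*. Sex and genotype therefore cannot be told apart on SD, and age and diet differ together. *Ddx3y* and *Eif2s3y*, both on the Y chromosome, are 2 of the 14.

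Among the other 12, *Acacb* was at 320, 241 and 209 CPM in SD *Mof*+/+ and 36.7, 30.5 and 28.6 CPM in SD *Mof*+/- libraries, with the opposite order on HFD. The log2 difference between the diets was 4.90 (standard error 0.51, adjusted p = 0.00400). *Aplnr*, the apelin receptor, overlapped on HFD and was at 210, 104 and 60.0 CPM in SD *Mof*+/+ and 3.79, 1.92 and 2.08 CPM in SD *Mof*+/- libraries. *Anxa1*, an anti-inflammatory annexin, was at 1491 and 1611 CPM in *Mof*+/+ and 408 and 460 CPM in *Mof*+/- libraries on HFD, and lower in *Mof*+/+ than in *Mof*+/- on SD. The stromal genes *Sfrp4*, *Fbln1*, *Thbs1* and *Postn*, whose proteins act in Wnt signaling and in the matrix, and the eosinophil chemokine *Ccl11* all showed this pattern, higher in *Mof*+/- on SD and lower on HFD. So did *Itgam*, *Fgf13*, *C130026I21Rik* and *Gm2619*, where *Gm2619* is annotated as a pseudogene that lies across *C130026I21Rik* on chromosome 1.

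**Figure D5:**
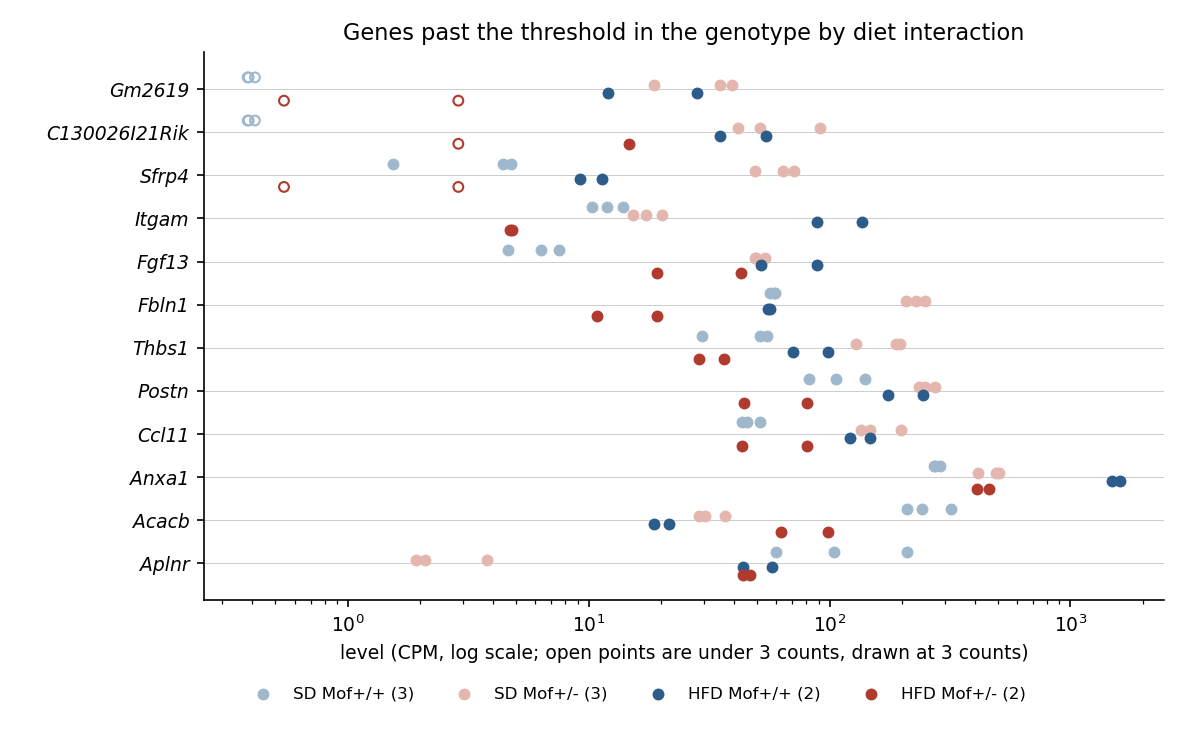
CPM (log scale) of the 12 genes past the threshold in the genotype by diet interaction that are not on the Y chromosome, in the 10 libraries, 1 point per library. Open points had under 3 counts and are drawn at 3 counts. Of the genes shown, *Acacb* is the 1 that is lower in *Mof*+/- on SD and higher on HFD.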

How the data were processed

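Visceral WAT was profiled by poly(A) mRNA-seq (TruSeq RNA v2, paired reads). In the snakePipes workflow of the authors, STAR placed the reads on GRCm38 and featureCounts (Subread 1.5.0-p1 per the labels) counted them by gene. The deposited values are these counts, not normalized. The annotation release is not given in the sources used here. Of 47937 identifiers, 47224 were matched to symbols, and coordinates came from GENCODE M21. Groups follow the sample labels, which call the libraries biological replicates. The column headings number the HFD *Mof*+/- libraries 3 and 4 and give the third SD libraries the opposite genotype.

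Genes with at least 10 counts in at least 2 of the 4 libraries were tested with edgeR 4.0.16 (TMM, quasi-likelihood, Benjamini-Hochberg adjustment over all genes, threshold 0.05), and the interaction over 10 libraries with the same filter. The adjusted p-values in the text are from edgeR. DESeq2 1.42.0 was an alternative, beside other filters, scales, a length correction (20 bins) and each library left out. CPM are counts over the library total, which set the precision, and values under 3 counts were set to 3 counts for gaps and for ratios between the *Mof*+/- libraries. Named genes were *Kat8*, the genes the study followed, the 15 of largest gap in each direction (at least 10 counts in both libraries of the higher genotype, at least 20 counts expected in the smallest library, *Mof*+/- libraries within 4-fold), up to 4 members of each list in its main direction and 2 in the other by mean CPM, the 12 highest muscle genes and the interaction genes. Some named genes are left out of the text, and a few list members outside the rule (*Ndufb8*, *Gpnmb*, *Trem2*, *Itgax*, *Ccl2*, *Ifi27l2a*) were added after their values were seen, as were *Atp5l*, *Atp5k*, *Cycs*, *Atp5g2*, *Cox6a1*, *Ndufa8* and *Ndufa11* for their promoters. The 53 lists were written from general knowledge, and members and lists were chosen with earlier results of these data known. The scripts were tested on simulated data. R 4.3.3 and Python 3.11.15 were used.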

Additional observations from a re-analysis of the deposited data

Results flagged for a closer look

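The 14 genes that passed the genotype by diet interaction (edgeR's quasi-likelihood test, adjusted p-value under 0.05) stand out because their genotype difference was not the same on both diets. The log2 interaction, the genotype difference on HFD minus that on SD, was −21.91 for *Gm2619*, −14.62 for *C130026I21Rik*, −14.04 for *Sfrp4*, −5.27 for *Itgam*, −4.35 for *Fgf13*, −4.06 for *Fbln1*, −3.44 for *Thbs1*, −3.10 for *Postn*, −3.05 for *Ccl11* and −2.73 for *Anxa1*. It was 4.90 for *Acacb*, 5.27 for *Aplnr*, 11.58 for *Eif2s3y* and 12.51 for *Ddx3y*. *Gm2619* and *C130026I21Rik* were at 0 in all SD *Mof*+/+ libraries, and *Ddx3y* and *Eif2s3y* in all SD *Mof*+/- libraries. *Gm2619* and *Sfrp4* were at 0 in both HFD *Mof*+/- libraries. The fitted values of these genes therefore depend on the prior count. Among 13 alternatives, *Ddx3y* and *Eif2s3y* passed in 13, *Sfrp4* in 12, *Gm2619* in 11, and *Itgam*, *Fbln1* and *Acacb* in 10, whereas *Aplnr* passed in 5, *Anxa1*, *Fgf13*, *Thbs1* and *C130026I21Rik* in 4, and *Postn* and *Ccl11* in 3. Sex differs between the genotypes on SD and cannot be told apart from genotype there. The rule for genes to be named took at most 5 in each direction, and the other 5 lower genes were added after their values were seen.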

How the results depend on the processing

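At an adjusted p-value under 0.05, 0 genes differed between the genotypes on HFD with edgeR under each filter, with DESeq2 size factors, without muscle and mitochondrial genes, with all 10 libraries and with the length trend removed. DESeq2 called 212. With 1 library left out of the edgeR fit the count ranged from 77 to 7311, the lone library then being assumed to vary like those of the other genotype. The numbers of the replicates do not pair the animals: the differences between replicates 1 and 2 correlated across 14552 genes with r = 0.0188 between the genotypes. A fit with the replicate block, which left 1 residual degree of freedom, called 196.

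Genes without overlap numbered 8048. The count was 5065 at a mean of at least 10 CPM (4020 of them lower), 4609 at that level after TMM normalization (2771 lower, an alternative chosen after seeing the data), and 4336 with a gap of at least 1.5-fold (454 higher and 3882 lower). TMM normalization raised the higher genes to 2085. With 1 library left out the total ranged from 9247 to 13858, the higher genes from 1569 to 4368 and the lower genes from 7678 to 10998, where fewer libraries leave fewer chances to overlap.

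The interaction gave 14 genes, 490 with DESeq2, 2 without the SD libraries numbered 3, and from 4 to 3166 with 1 library left out. The highest count came without HFD *Mof*+/- replicate 2, and the cause was not tested. Without HFD *Mof*+/- replicate 1 it was 38.

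Of 1658 refitted log2 fold changes of 129 genes named, 20 changed sign, all in genes whose genotypes overlapped. *Kat8* turned to −0.039 with the replicate block and −0.12 with the length trend removed, *Rbp4* to −0.53 and −0.13, *Atp5g2* to −0.030 and −0.15, and *Ppargc1a* to −0.38 with the block. With 1 library left out, the log2 fold change ranged from −0.65 to 0.51 for *Kat8*, −0.995 to 0.15 for *Pparg*, −0.95 to 0.91 for *Adipoq*, −0.70 to 0.54 for *Atp5g2*, −0.95 to 1.37 for *Cox6a1*, −1.20 to 0.23 for *Cd36*, −1.72 to 0.078 for *Dgat2*, −2.12 to 0.92 for *Rbp4*, −0.38 to 1.99 for *Mef2c*, −0.21 to 0.50 for *Pdk1*, −7.85 to 1.47 for *Ppargc1a* (0 counts in *Mof*+/- replicate 1) and −0.032 to 0.38 for *Aplnr*. The 14 interaction genes kept their sign in 182 of 182 refits. In *Mof*+/- replicate 1, 3 counts amount to 2.87 CPM, and the part of depth in the lower calls was not tested.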

Other observations

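Hemoglobin transcripts were also higher in both *Mof*+/- libraries, whereas markers of nerve were mixed (3 of 8 higher and 3 lower). *Hba-a1*, alpha globin, was at 194 and 222 CPM in *Mof*+/+ and 1183 and 448 CPM in *Mof*+/-, and 4 of 5 erythrocyte genes tested were higher. Of all genes, 8.44% were higher and 46.9% lower on CPM. *S100b*, a protein of glia that adipocytes also express, was at 1.81 and 2.12 CPM in *Mof*+/+ and 14.4 and 19.5 CPM in *Mof*+/-. Markers of epididymis and testis, which border the visceral fat pad of males, were too low for any of 18 to be tested.

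*Itgam*, *Itgax* and *Kat8* lie within 500 kb of each other on chromosome 7. Of 37 genes tested in that window around *Kat8*, 18 were lower and 2 higher in both *Mof*+/- libraries, a share near that of all genes, and the 2 higher genes were *Cox6a2*, which is on the muscle list, and *Armc5*. These genes were named after their values were seen.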
